A study of Bos taurus with 29 samples.

Results

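FIGLA, NOBOX, SOHLH2 and BNC1 are transcription factors that oocytes make while their follicles grow. They were chosen by name, with 4 of 4 found among the 13502 genes measured in single cattle oocytes, and all 4 passed the filter on low values (at least 1 CPM in at least 6 libraries), as 11852 genes did. CPM is the number of reads of a gene divided by the total of its library in units of 1000000 reads. CNP_IVM oocytes were cultured as cumulus-oocyte complexes for 6 h in medium that held FSH and 200 nM CNP (C-type natriuretic peptide) but no EGF, then for 22 h in maturation medium with EGF and FSH, 28 h in all. IVM oocytes had the 22 h of maturation alone, and both kinds were stripped of cumulus cells afterwards and taken at metaphase II, judged by a polar body. GV oocytes, still arrested at the germinal vesicle stage, were stripped at collection. All came from follicles of FSH-treated donor cattle, carry the genotype label WT, and were sequenced singly: 7 CNP_IVM, 8 IVM and 7 GV oocytes had values here.

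FIGLA, NOBOX and SOHLH2 sit near the top of the oocyte's own transcription programme. In mice, SOHLH2 and its partner SOHLH1 are basic helix-loop-helix factors that act as primordial follicles are recruited to grow, FIGLA is a further factor of that class that pairs with E proteins and is required for primordial follicles and for zona pellucida genes, and the homeobox factor NOBOX is required for growth beyond the primordial stage and for growth factor genes such as Gdf9. BNC1, basonuclin, is a zinc finger protein known in mouse oocytes as a factor for the transcription of ribosomal RNA genes by RNA polymerase I. A fully grown oocyte makes little new RNA, and during maturation it lives on stored messenger RNA, whose poly(A) tails are lengthened or shortened.

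Libraries were made from 1 oocyte each, with no donor given in the labels, so a group counted as 1 sample, no test was made, and SDs give the spread between oocytes only. Every library was primed on poly(A), so the amount of a transcript, the length of its tail and the rest of the library cannot be told apart. CNP and 6 h of extra culture cannot be told apart in CNP_IVM oocytes. Libraries held 20159662 to 39340040 reads. Genes with at least 1 CPM numbered 9429 to 9834 in CNP_IVM, 9431 to 10783 in IVM oocytes and 9381 to 11798 in GV oocytes. The lowest GV value belonged to GV replicate 9, which is titled GV but has a treatment label of in vitro maturation. It stood apart from the other 6 GV oocytes, which had 11311 genes or more, and results are also given without it.

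FIGLA and NOBOX transcripts were lower after maturation, and lowest after CNP pre-maturation, while SOHLH2 and BNC1 were less than 2-fold apart in every comparison with library totals. With other scaling factors, SOHLH2 came past 2-fold in IVM against GV and FIGLA came under 2-fold in CNP_IVM against IVM. After IVM against GV, 2 of the 4 genes were at least 2-fold lower and 0 at least 2-fold higher, where 33.0% of all 11852 genes were lower and 15.9% higher. In CNP_IVM against GV the same counts were 2 and 0, where 42.0% of all genes were lower and 15.3% higher. In CNP_IVM against IVM they were 2 and 0, where 14.8% of all genes were lower and 1.86% higher. FIGLA and NOBOX were the lower genes in each comparison. Folds are log2 differences of group means with 1 CPM added to each, which understates the differences of low genes.

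**Figure D1:**
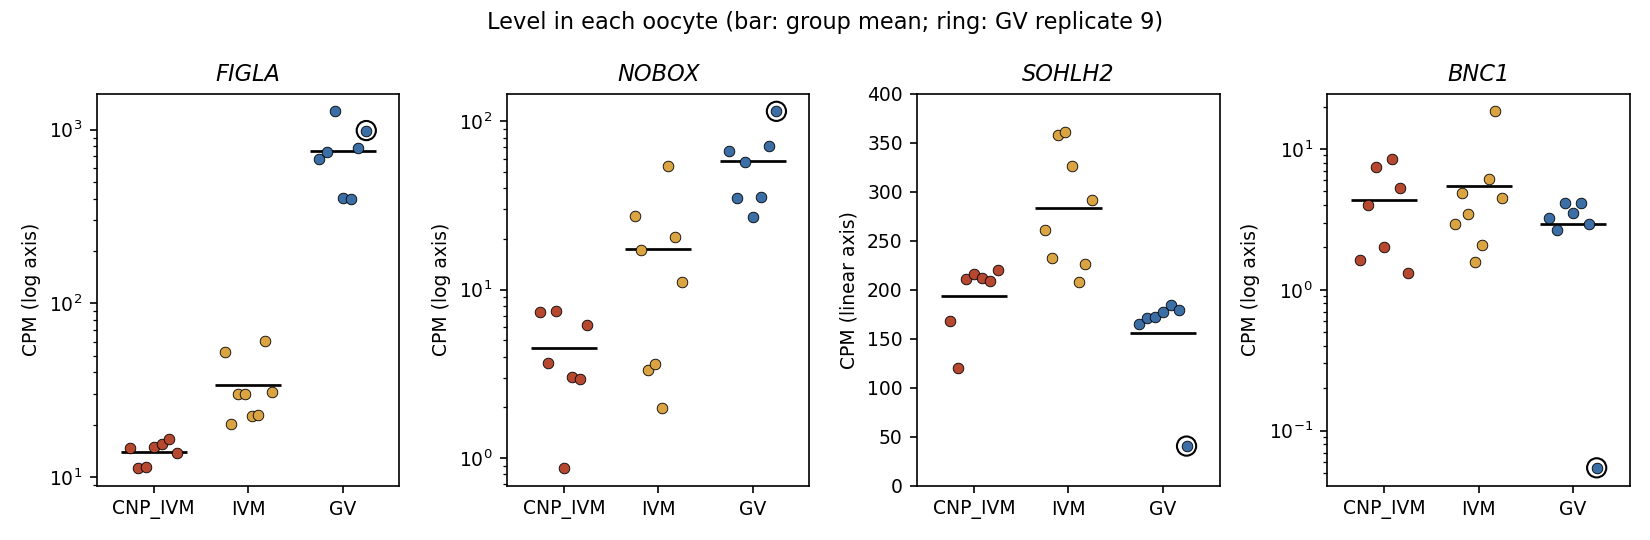
CPM of the 4 genes in each oocyte, on log axes except for SOHLH2. Points are oocytes, bars are group means and the ring marks GV replicate 9. FIGLA lies in 3 ranges that do not overlap, NOBOX spreads widely among IVM oocytes, and GV replicate 9 lies low for SOHLH2 and BNC1.

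FIGLA, the helix-loop-helix factor of primordial follicles and zona genes, differed most of the 4 against GV, while NOBOX differed more between CNP_IVM and IVM. Its level ran from 11.3 to 16.5 CPM (median 14.6) in CNP_IVM oocytes, from 20.3 to 60.4 CPM (median 29.96) in IVM oocytes and from 397 to 1273 CPM (median 746) in GV oocytes. No 2 groups overlapped: the highest CNP_IVM oocyte lay below the lowest IVM oocyte, and the highest IVM oocyte below the lowest GV oocyte. Of all genes, 19.9% lay wholly below and 11.5% wholly above GV after IVM (31.4% without overlap), and 28.0% lay wholly below and 12.9% wholly above GV after CNP_IVM (40.9%). In CNP_IVM oocytes, 2.6% lay wholly below IVM and 1.38% wholly above it (3.97%).

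FIGLA averaged 33.7 ± 14.8 CPM after IVM (SD, n = 8) against 752 ± 311 CPM in GV oocytes (SD, n = 7), a log2 difference of -4.44. Of all genes, 0.565% had a lower difference in that comparison. After CNP_IVM it averaged 14.02 ± 1.97 CPM (SD, n = 7), a log2 difference of -5.65 from the same GV oocytes, and 0.236% of genes had a lower one. Without GV replicate 9, these differences were -4.36 and -5.57. The difference between the matured groups, CNP_IVM against IVM, was -1.21, and 9.55% of genes had a lower one. It shrank to -0.91 with TMM or median-of-ratios factors in place of library totals, which is under 2-fold. With median-of-ratios factors those groups also overlapped, at 12.7 to 19.2 in CNP_IVM and 18.9 to 48.1 in IVM oocytes. FIGLA varied least among CNP_IVM oocytes, by 1.46 times from lowest to highest, against 2.98 times in IVM oocytes and 3.20 times in GV oocytes. Its reads, summed over a group, gave 13.99 CPM (13.5 to 14.5) in CNP_IVM, 34.8 CPM (34.1 to 35.5) in IVM oocytes and 759 CPM (756 to 763) in GV oocytes, where the exact 95% Poisson intervals cover the counting of reads only.

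NOBOX, the homeobox factor of early follicle growth, had the same order of group means, with groups that overlapped. It ran from 0.873 to 7.47 CPM (median 3.69) in CNP_IVM, from 1.98 to 54.3 CPM (median 14.1) in IVM and from 26.9 to 115 CPM (median 57.6) in GV oocytes. Every CNP_IVM oocyte lay below every GV oocyte, while IVM oocytes reached into both other ranges. Means were 4.50 ± 2.53 CPM in CNP_IVM (SD, n = 7), 17.4 ± 17.5 CPM in IVM (SD, n = 8) and 58.3 ± 30.2 CPM in GV oocytes (SD, n = 7). The log2 differences were -1.69 for IVM against GV, -3.43 for CNP_IVM against GV and -1.74 for CNP_IVM against IVM. Without GV replicate 9, the highest GV oocyte, the first pair of differences was -1.44 and -3.18. Without IVM replicate 8, the highest IVM oocyte, IVM against GV was -2.18 and CNP_IVM against IVM was -1.25.

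NOBOX spread 27.4 times from the lowest to the highest IVM oocyte, against 2.98 times for FIGLA in the same oocytes. The lowest NOBOX values of the group were 1.98 CPM in IVM replicate 7, 3.33 CPM in replicate 5 and 3.59 CPM in replicate 6, all within the CNP_IVM range. Those 3 oocytes also had the fewest genes at 1 CPM or more in their group (9431, 9460 and 9817), and the 3 highest SOHLH2 levels. The highest NOBOX values were 54.3 CPM in replicate 8, with 10752 genes, and 27.2 CPM in replicate 1, with 10783 genes. The part that library complexity has in the NOBOX spread was not tested.

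SOHLH2, the partner of SOHLH1, had its highest levels in IVM oocytes. It ran from 120 to 220 CPM (median 211) in CNP_IVM, from 208 to 361 CPM (median 276) in IVM and from 40.4 to 185 CPM (median 172) in GV oocytes. Every IVM oocyte lay above every GV oocyte, while the CNP_IVM range overlapped both of the others. It averaged 194 ± 36.8 CPM in CNP_IVM (SD, n = 7), 283 ± 60.4 CPM in IVM (SD, n = 8) and 155 ± 51.2 CPM in GV oocytes (SD, n = 7). Its log2 difference was 0.32 for CNP_IVM against GV, -0.54 for CNP_IVM against IVM and 0.86 for IVM against GV, all under 2-fold. The last of these was past 2-fold with TMM factors (1.16) and median-of-ratios factors (1.04), and 0.69 without GV replicate 9 (0.15 for CNP_IVM against GV), whose 40.4 CPM was the lowest value of any oocyte. In the other 6 GV oocytes SOHLH2 lay between 165 and 185 CPM.

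BNC1, the basonuclin of ribosomal RNA genes in mouse oocytes, was scarce in every group and showed no order beyond the spread of its oocytes. It ran from 1.32 to 8.55 CPM (median 4.005) in CNP_IVM, from 1.57 to 18.5 CPM (median 3.95) in IVM and from 0.0545 to 4.14 CPM (median 3.24) in GV oocytes, and all 3 ranges overlapped. The lowest value was 2 reads in GV replicate 9 and the highest was 673 reads in IVM replicate 9. Means were 4.32 ± 2.89 CPM, 5.50 ± 5.46 CPM and 2.96 ± 1.39 CPM in CNP_IVM, IVM and GV oocytes (SD, n = 7, 8 and 7). The log2 difference was 0.72 for IVM against GV and 0.43 for CNP_IVM against GV. Without GV replicate 9 these were 0.55 and 0.26, and without IVM replicate 9, IVM against GV was 0.23. CNP_IVM against IVM was -0.29 with all oocytes and 0.20 without that replicate. In the RefSeq annotation of cattle assembly ARS-UCD2.0, 1 other gene model, LOC132343347, overlaps BNC1, and the kit does not mark strand, so their reads may not be told apart. FIGLA, NOBOX and SOHLH2 have 0 overlapping models there.

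**Figure D2:**
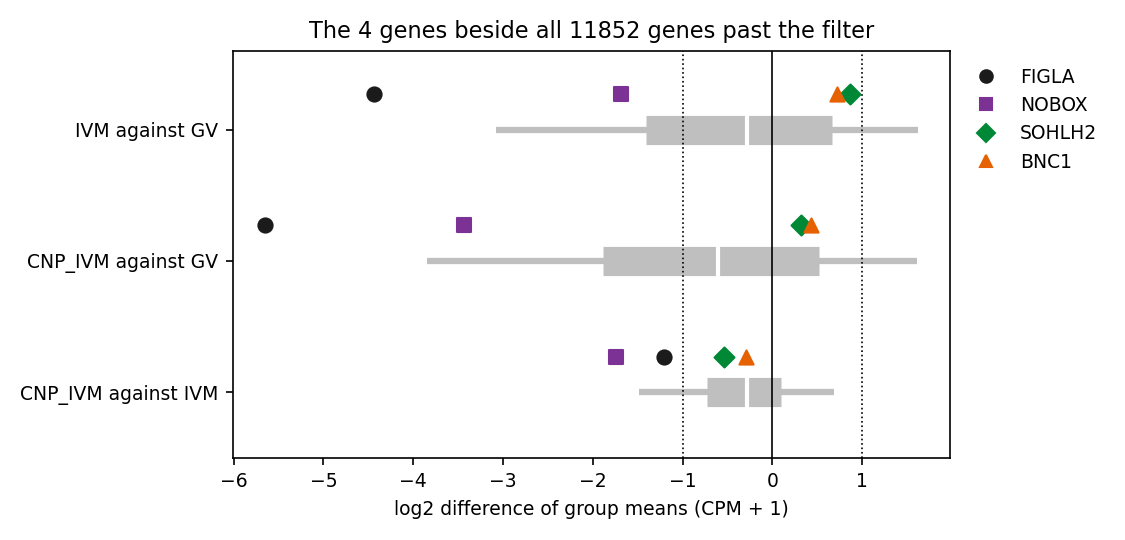
Log2 differences of group means for the 4 genes (symbols) above the spread of all 11852 genes (thick bar from percentile 25 to 75, thin bar from 5 to 95, white line the median) in each comparison. Dotted lines mark 2-fold. FIGLA lies beyond the thin bar against GV at -4.44 and -5.65, and NOBOX beyond it only in CNP_IVM against IVM, at -1.74.

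The median of all genes was itself below 0 on this scale, at -0.28 for IVM and -0.61 for CNP_IVM against GV, and at -0.28 between the matured groups. Relative to those medians, FIGLA stood at -4.16, -5.04 and -0.92, NOBOX at -1.41, -2.82 and -1.46, SOHLH2 at 1.14, 0.93 and -0.26, and BNC1 at 1.00, 1.04 and -0.0052, in the same order of comparisons. With TMM factors the medians were -0.05, -0.13 and -0.05.

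A ratio of 2 genes within an oocyte does not depend on the scaling of the library. Gene length does not enter CPM, so such ratios are compared between groups and not read as relative abundance. The ratio of FIGLA to SOHLH2 had a median of 0.0734 (0.0544 to 0.0940) in CNP_IVM, 0.0967 (0.0685 to 0.267) in IVM oocytes and 4.36 (2.15 to 24.4) in GV oocytes. Both matured groups lay wholly below GV, and they overlapped each other. The ratio of NOBOX to SOHLH2 had a median of 0.0280 (0.00404 to 0.0439) in CNP_IVM, 0.0560 (0.00608 to 0.261) in IVM oocytes and 0.335 (0.152 to 2.84) in GV oocytes. CNP_IVM lay wholly below GV for this ratio, while IVM overlapped both other groups. The highest GV value of each ratio was that of GV replicate 9.

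**Figure D3:**
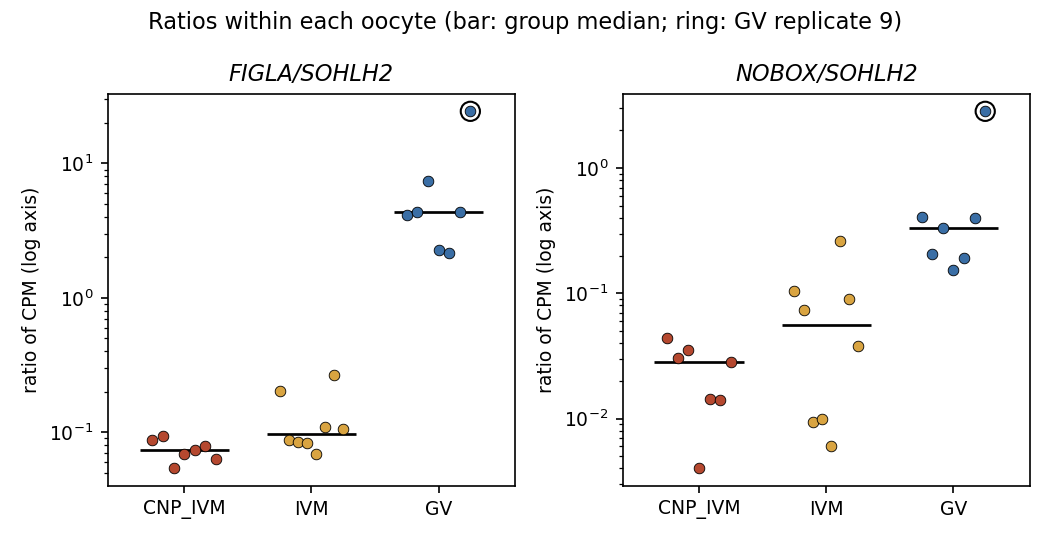
Ratios of FIGLA to SOHLH2 and of NOBOX to SOHLH2 within each oocyte, on log axes, with bars at group medians and a ring on GV replicate 9. Every matured oocyte lies below every GV oocyte for FIGLA, with medians of 0.0734 in CNP_IVM, 0.0967 in IVM oocytes and 4.36 in GV.

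Other factors of the oocyte growth programme went different ways. Of 8 measured genes, those known in mice to work with these factors or to hold primordial follicles, plus the paralog BNC2, 2 were at least 2-fold higher, 2 lower and 4 under 2-fold in IVM against GV. The counts were 3, 2 and 3 for CNP_IVM against GV, and 0, 1 and 7 when CNP_IVM was set against IVM. Without GV replicate 9 they were 3, 2 and 3 in IVM against GV and 1, 2 and 5 in CNP_IVM against GV. Over all genes, 15.9% were higher and 33.0% lower in IVM against GV, and 15.3% and 42.0% in CNP_IVM against GV. The shares in CNP_IVM against IVM were 1.86% and 14.8%, and the same shares stand beside the lists below. TBPL2, the oocyte form of the TATA-binding protein, averaged 22.3 CPM (15.5 to 34.5) in CNP_IVM, 27.3 CPM (16.4 to 37.0) in IVM oocytes and 93.5 CPM (1.23 to 143) in GV oocytes, where the 1.23 CPM is GV replicate 9. DYNLL1, a dynein light chain, averaged 695 CPM (635 to 731) in CNP_IVM, 675 CPM (452 to 841) in IVM oocytes and 4229 CPM (3189 to 5204) in GV oocytes, and both matured groups lay wholly below GV. LHX8, a homeobox factor of the same mouse programme as NOBOX, averaged 48.9 CPM (38.5 to 56.9) in CNP_IVM, 73.2 CPM (53.8 to 88.6) in IVM oocytes and 77.6 CPM (61.1 to 109) in GV oocytes. Its difference in IVM against GV was -0.08 and turned to 0.20 with TMM factors.

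STAT3, a signal-activated transcription factor, averaged 497 CPM (312 to 783) in CNP_IVM, 576 CPM (229 to 1213) in IVM oocytes and 238 CPM (188 to 349) in GV oocytes, with overlapping ranges. SUB1, a transcriptional coactivator, averaged 500 CPM (339 to 712) in CNP_IVM, 352 CPM (178 to 540) in IVM oocytes and 240 CPM (115 to 302) in GV oocytes, and every CNP_IVM oocyte lay above every GV oocyte. FOXO3, which restrains primordial follicle activation in mice, averaged 26.002 CPM in CNP_IVM, 30.4 CPM in IVM oocytes and 12.5 CPM in GV oocytes, with 0 in GV replicate 9. Without GV replicate 9, SUB1 and FOXO3 came under 2-fold in CNP_IVM against GV, at 0.94 and 0.80. BNC2, the paralog of BNC1, averaged 33.4 CPM (24.1 to 48.3) in CNP_IVM, 75.4 CPM (44.8 to 112) in IVM oocytes and 38.4 CPM (28.7 to 68.9) in GV oocytes. Its difference of 0.96 in IVM against GV was past 2-fold at 1.16 without GV replicate 9 and 1.21 with TMM factors. Its difference of -1.15 in CNP_IVM against IVM was -0.82 with TMM factors, under 2-fold. DYNLL1 and SUB1 may share reads with close copies, which was not checked.

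E proteins are the dimer partners of FIGLA, and ID proteins bind E proteins and keep them from DNA. Of 5 such genes with enough reads, 1 was at least 2-fold higher, 1 lower and 3 under 2-fold in IVM against GV and again in CNP_IVM against GV, with 0, 1 and 4 when CNP_IVM was set against IVM. TCF3, an E protein, was the lower gene, at 9.21 CPM (4.11 to 13.4) in CNP_IVM, 23.2 CPM (5.75 to 46.03) in IVM oocytes and 50.1 CPM (28.6 to 78.8) in GV oocytes. Its IVM against GV difference of -1.08 was -0.88 with TMM factors and -0.93 without GV replicate 9, both under 2-fold, and its CNP_IVM against IVM difference of -1.25 was -0.89 with TMM factors. TCF4, a further E protein, was the higher gene, at 73.8 CPM (53.0 to 97.4) in CNP_IVM, 95.02 CPM (78.9 to 124) in IVM oocytes and 34.2 CPM (3.16 to 50.5) in GV oocytes, so every matured oocyte lay above every GV oocyte. In CNP_IVM against GV its difference of 1.09 was 0.89 without GV replicate 9. ID3 was abundant in all groups, at 3147 CPM (1817 to 4721) in CNP_IVM, 3947 CPM (2171 to 6309) in IVM oocytes and 4204 CPM (3066 to 4855) in GV oocytes, and its differences from GV of -0.42 and -0.09 turned to 0.11 and 0.19 with TMM factors.

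The zona pellucida genes, some of which depend on FIGLA in mice, went apart from each other. Of 3 measured, 1 (ZP3) was at least 2-fold lower in IVM against GV, 2 (ZP3 and ZP4) in CNP_IVM against GV and the same 2 when CNP_IVM was set against IVM, with 0 higher. ZP2 averaged 3118 CPM (2391 to 4061) in CNP_IVM, 3444 CPM (2488 to 5334) in IVM oocytes and 3134 CPM (2077 to 3933) in GV oocytes, and all 3 ranges overlapped. ZP3 averaged 172 CPM (130 to 239) in CNP_IVM, 644 CPM (246 to 1249) in IVM oocytes and 3058 CPM (1530 to 8420) in GV oocytes, and no 2 groups overlapped, the pattern of FIGLA. Its log2 differences from GV of -4.14 in CNP_IVM and -2.24 in IVM were -3.64 and -1.75 without GV replicate 9, which held the 8420 CPM. ZP4 averaged 443 CPM (341 to 535) in CNP_IVM, 1568 CPM (1024 to 2634) in IVM oocytes and 3010 CPM (2310 to 3546) in GV oocytes, with every CNP_IVM oocyte below every IVM oocyte. Within oocytes the ratio of ZP3 to ZP2 had a median of 0.0660 (0.0331 to 0.0770) in CNP_IVM, 0.197 (0.0570 to 0.358) in IVM oocytes and 0.604 (0.389 to 4.06) in GV, so CNP_IVM and IVM overlapped for this ratio while both lay below GV. The ratio of ZP4 to ZP2 had a median of 0.143 (0.109 to 0.177) in CNP_IVM, 0.477 (0.237 to 0.622) in IVM oocytes and 0.915 (0.794 to 1.29) in GV, with no overlap between groups.

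**Figure D4:**
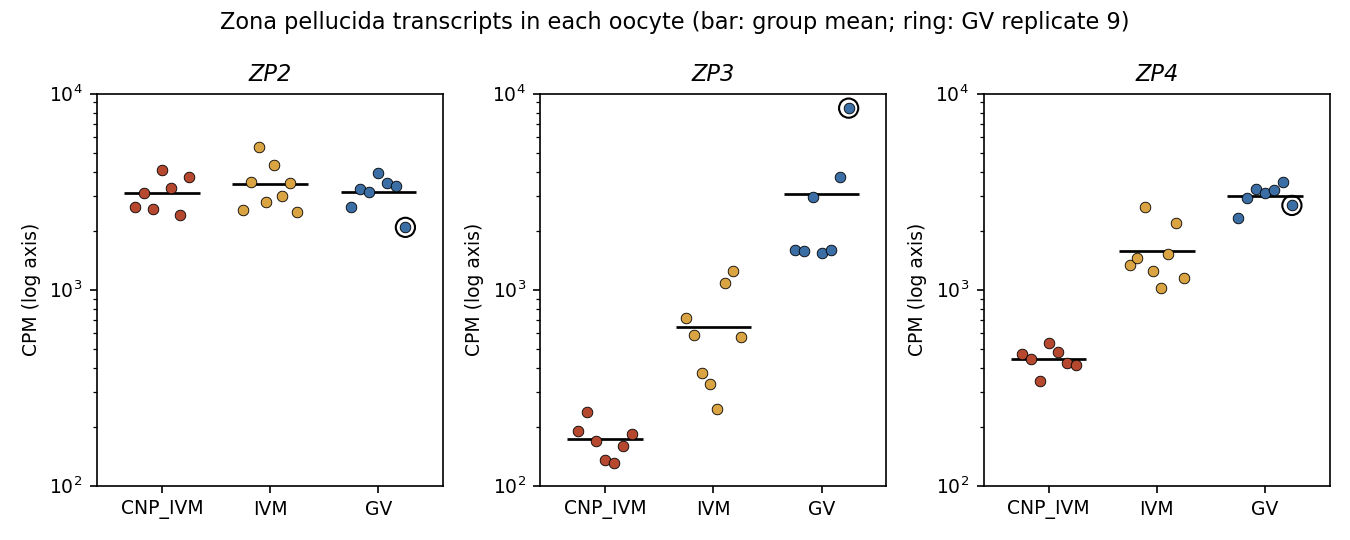
CPM of ZP2, ZP3 and ZP4 in each oocyte on log axes, with bars at group means and a ring on GV replicate 9. ZP2 lies at 3118, 3444 and 3134 CPM on average in CNP_IVM, IVM and GV oocytes, while ZP3 and ZP4 are lowest in CNP_IVM oocytes.

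Genes that need NOBOX in mouse ovaries differed in both directions. Of 7 measured, 2 were at least 2-fold higher, 1 lower and 4 under 2-fold in IVM against GV, with a median log2 difference of -0.22 against -0.28 over all genes. In CNP_IVM against GV the counts were 1, 3 and 3, with a median of -0.84 against -0.61, and in CNP_IVM against IVM 0, 2 and 5, with a median of -0.88 against -0.28. With TMM factors these last sets of counts were 2, 1 and 4, and 0, 0 and 7. ZAR1, which acts on maternal messenger RNA in oocytes, was at least 2-fold lower in every comparison, at 58.8 CPM (42.8 to 84.4) in CNP_IVM, 135 CPM (37.4 to 261) in IVM oocytes and 1245 CPM (887 to 2062) in GV oocytes. With TMM factors its CNP_IVM against IVM difference of -1.18 was -0.81, and that of MOS, -1.02, was -0.71, both under 2-fold. DNMT1, the maintenance DNA methyltransferase, went the other way, at 802 CPM (704 to 890) in CNP_IVM, 667 CPM (602 to 843) in IVM oocytes and 189 CPM (37.3 to 242) in GV oocytes, with every matured oocyte above every GV oocyte.

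The oocyte growth factor GDF9 averaged 378 CPM (315 to 447) in CNP_IVM, 695 CPM (511 to 937) in IVM oocytes and 820 CPM (514 to 1045) in GV oocytes. With library totals every CNP_IVM oocyte lay below both other groups, while with TMM factors GDF9 in CNP_IVM overlapped both. The GDF9 difference in CNP_IVM against GV of -1.12 was -0.57 with TMM factors, under 2-fold. BMP15, its close relative, averaged 1219 CPM (907 to 1567) in CNP_IVM, 2250 CPM (1320 to 3360) in IVM oocytes and 764 CPM (542 to 1085) in GV oocytes, with every IVM oocyte above every GV oocyte. MOS, the kinase of meiotic arrest, averaged 864 CPM in CNP_IVM, 1759 CPM in IVM oocytes and 2047 CPM in GV oocytes, and its IVM against GV difference of -0.22 turned to 0.07 without GV replicate 9. Its CNP_IVM against GV difference of -1.24 was -0.95 without that oocyte and -0.64 with TMM factors, both under 2-fold. The pluripotency factor gene POU5F1 averaged 39.1 CPM, 68.9 CPM and 66.9 CPM and the oocyte linker histone H1-8 averaged 1209 CPM, 1851 CPM and 2170 CPM, each in the order CNP_IVM, IVM, GV and with ranges that overlapped. Of 5 measured genes that need SOHLH factors in mice, FIGLA, NOBOX and ZP3 were the 3 at least 2-fold lower in every comparison. KIT was the 1 higher in IVM against GV. FIGLA and NOBOX are themselves among the factors described above, so this count partly repeats their result. With TMM or median-of-ratios factors, FIGLA came under 2-fold in CNP_IVM against IVM, at -0.91. With the same factors, KIT was also at least 2-fold higher in CNP_IVM against GV. KIT, a receptor gene that needs SOHLH factors in mice, averaged 64.9 CPM (35.9 to 87.4) in CNP_IVM, 117 CPM (74.5 to 187) in IVM oocytes and 42.4 CPM (27.4 to 54.6) in GV oocytes, the order SOHLH2 also showed.

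The RNA polymerase I machinery, on which BNC1 bears in mice, held genes on both sides. In IVM against GV, 5 of 14 such genes were at least 2-fold higher, 5 lower and 4 under 2-fold. The shares over all genes there were 15.9% higher and 33.0% lower. The counts were 3, 5 and 6 for CNP_IVM against GV, and 0, 3 and 11 when CNP_IVM was set against IVM. With TMM factors the counts were 7, 3 and 4, then 7, 4 and 3, then 1, 1 and 12, in the same order of comparisons. Without GV replicate 9, POLR1G came under 2-fold in IVM against GV (-1.01 with it, -0.64 without) and POLR1A in CNP_IVM against GV (-1.30 with it, -0.86 without). POLR1F came past 2-fold on the higher side in CNP_IVM against GV (0.96 with it, 1.35 without). That POLR1F difference fell as low as -0.07 when each oocyte was left out in turn. POLR1E, a subunit of the polymerase, averaged 53.5 CPM (37.5 to 67.2) in CNP_IVM, 68.5 CPM (42.5 to 112) in IVM oocytes and 603 CPM (283 to 768) in GV oocytes. POLR1D, a subunit shared with RNA polymerase III, averaged 22.7 CPM (16.7 to 29.9) in CNP_IVM, 24.5 CPM (17.5 to 42.7) in IVM oocytes and 131 CPM (99.7 to 221) in GV oocytes, and for both subunits every matured oocyte lay below every GV oocyte. TAF1A, of the promoter selectivity factor, averaged 540 CPM (278 to 842) in CNP_IVM, 549 CPM (337 to 819) in IVM oocytes and 189 CPM (4.77 to 274) in GV oocytes, so every matured oocyte lay above every GV oocyte. UBTF, the upstream binding factor, averaged 18.6 CPM (13.03 to 26.2) in CNP_IVM, 34.5 CPM (18.3 to 67.9) in IVM oocytes and 10.3 CPM (6.13 to 14.9) in GV oocytes. TTF1, the termination factor, averaged 253 CPM (218 to 311) in CNP_IVM, 136 CPM (67.7 to 192) in IVM oocytes and 77.1 CPM (5.07 to 109) in GV oocytes, and every CNP_IVM oocyte lay above every IVM oocyte.

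**Figure D5:**
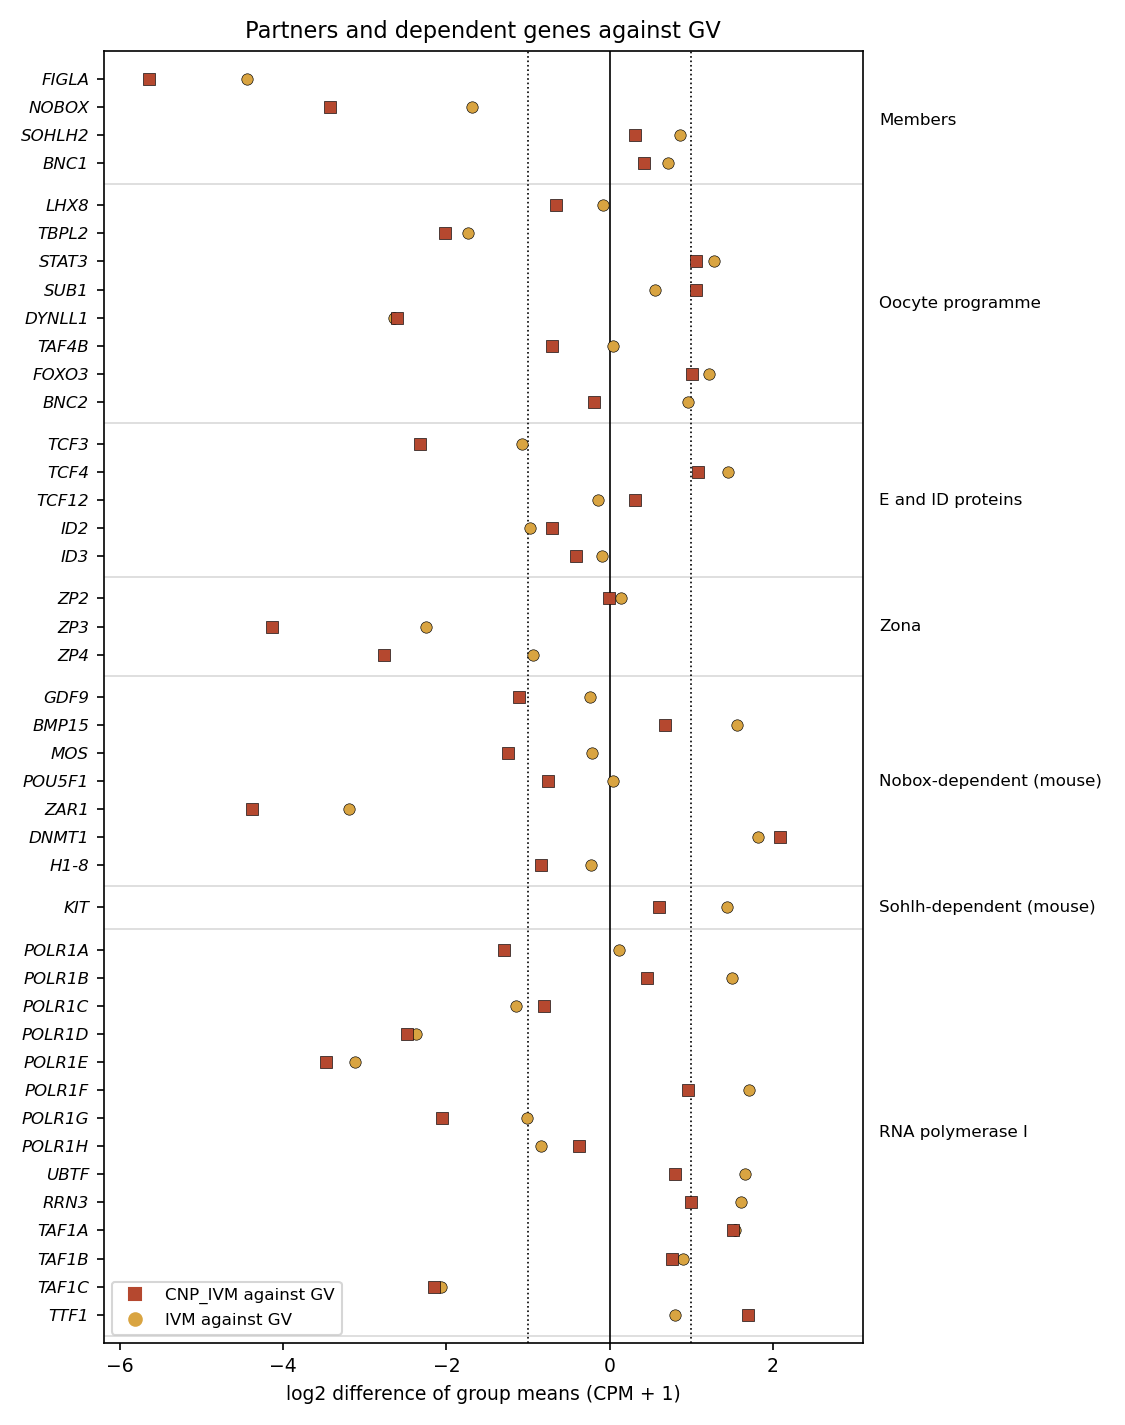
Log2 differences from GV of the 4 genes and of the other listed genes past the filter, squares for CNP_IVM and circles for IVM, with dotted lines at 2-fold. FIGLA holds the lowest values at -5.65 and -4.44, and the partner, E protein and RNA polymerase I groups hold genes past 2-fold on both sides.

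The genes whose pattern over the 22 oocytes was most like that of each factor were found by the root mean square difference of centred log2 values, as a description. For FIGLA they were GNB1L (0.44), NDUFA7 (0.47), TMEM147 (0.50), TMEM160 (0.51) and MDH2 (0.52). GNB1L averaged 0.214 CPM (0 to 0.608) in CNP_IVM, 1.60 CPM (0 to 4.37) in IVM oocytes and 49.5 CPM in GV oocytes. The log2 values had 1 CPM added, which weighs on matches at such low levels. NDUFA7, of respiratory complex I, averaged 5.48 CPM in CNP_IVM, 10.3 CPM in IVM oocytes and 230 CPM in GV oocytes, and MDH2, of the citric acid cycle, 10.9 CPM, 26.9 CPM and 459 CPM in that order. For NOBOX they were CCDC106 (0.47), ARF3 (0.49), BRINP2 (0.53), WASHC1 (0.53) and STK25 (0.54), and ARF3, a small GTPase, averaged 2.62 CPM in CNP_IVM, 12.7 CPM in IVM oocytes and 44.4 CPM in GV oocytes. For SOHLH2 they were DEPDC7 (0.26), HSPA14 (0.27), PIAS1 (0.27), VRK1 (0.28) and FRYL (0.29), and VRK1, a chromatin kinase, averaged 987 CPM in CNP_IVM, 1550 CPM in IVM oocytes and 1048 CPM in GV oocytes. The measure is not scaled to how much a gene varies, so its size is not compared between factors. For BNC1 they were ZNF526 (0.50), MINPP1 (0.54), CLASP1 (0.55), DYNC1H1 (0.56) and ZNF177 (0.56). With TMM factors, 5 of 5 matches were shared for FIGLA and SOHLH2, 4 of 5 for NOBOX and 3 of 5 for BNC1.

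Sums of markers of other cells had the same order of groups as FIGLA and NOBOX, with single markers that did not. The cumulus and granulosa sum lost that order without 1 gene, STAR. Summed cumulus and granulosa markers, 16 of 19 with values here, were at 249 to 314 CPM in CNP_IVM, 353 to 668 CPM in IVM oocytes and 675 to 1174 CPM in GV oocytes. Of these, STAR averaged 93.9, 316 and 657 CPM in the same order, and without it the sums were at 149 to 198, 178 to 259 and 87.5 to 434 CPM, which overlapped. Their means were then 177, 201 and 195 CPM, highest in IVM oocytes. HAS2, the hyaluronan synthase of expanding cumulus, went the other way, at 118 CPM (98.3 to 150) in CNP_IVM, 77.1 CPM (61.1 to 94.8) in IVM oocytes and 16.3 CPM (9.78 to 25.97) in GV oocytes, with no overlap. Of 12 such genes with enough reads, 2 were at least 2-fold higher and 4 lower in IVM against GV, and 1 and 6 in CNP_IVM against GV. The granulosa genes FSHR, CYP11A1 and HSD3B1 had group medians between 0 and 0.50 CPM. HSD3B1 averaged 3.71 CPM in GV oocytes, with 23.8 CPM in GV replicate 9. INHA and FST, of the same list, were at least 2-fold lower in both matured groups against GV. Their GV means were 15.7 and 10.4 CPM, with GV medians of 2.52 and 1.27 CPM. Their IVM means were 0.723 and 0.432 CPM, and both had CNP_IVM medians of 0. GV replicate 6 held the highest values, at 59.7 CPM for INHA and 42.0 CPM for FST. It was also the highest GV oocyte for FSHR, CYP11A1, CYP19A1, INHBA and NR5A2. GV replicate 9 was the highest GV oocyte for HSD3B1, HAS2, PTX3 (21.7 CPM), SERPINE2 (185 CPM) and VCAN (62.6 CPM). Marker results are not given without that oocyte. Summed blood and immune markers, 5 of 9 with values here, were at 3.53 to 25.7 CPM in CNP_IVM, 8.42 to 46.8 CPM in IVM oocytes and 173 to 362 CPM in GV oocytes. Of these, VWF averaged 11.2, 21.1 and 225 CPM and CD3E 1.27, 3.55 and 29.4 CPM in that order. The other measured genes, PECAM1, CD68 and HBA, averaged under 1 CPM in every group. PECAM1 was highest in IVM oocytes at 0.523 CPM, and CD68 was at 0 in every CNP_IVM oocyte. Oocyte markers, 12 of 12 with values, summed to 35708 to 51422 CPM in CNP_IVM, 29728 to 45794 CPM in IVM oocytes and 22708 to 28100 CPM in GV oocytes. BTG4, an oocyte gene of messenger RNA decay, held most of the CNP_IVM sum, at 32075, 19952 and 9807 CPM on average in the same order. The other 11 oocyte markers summed to 8692 to 10459 CPM in CNP_IVM, 12085 to 20288 CPM in IVM oocytes and 12980 to 22425 CPM in GV oocytes, the opposite order of means. The sums without STAR and BTG4 were chosen after seeing the data. The part of other cells in the levels of the 4 factors was not tested.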

How the data were processed

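Messenger RNA was measured in single cattle oocytes with SMART-Seq v4 and Nextera XT libraries and paired reads, per the labels' protocols. Tools named in the submitters' processing notes, without order or role, are edgeR, featureCounts 2.0.1, HISAT2 2.2.1, FastQC and Trim Galore 0.6.7, with the mouse build GRCm39, while the gene names are cattle symbols (13356 of 13502 are current RefSeq symbols of ARS-UCD2.0). The deposited values are CPM as made by the authors, although the table is named for TPM: every value was a whole multiple of 1 step per library (100% of values, tolerance 0.01 read). Of 29 labelled samples, 22 had a column and 7 were not analysed here. Groups came from titles.

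No donor is named, and oocytes may share one, so a group was treated as 1 sample and no count test was run on the recovered reads. Log2 differences used group means with a pseudocount of 1 CPM, and at least 2-fold was counted over 11852 genes. TMM factors came from edgeR 4.0.16 and other steps from Python 3.11.15. The steps were tested on simulated reads. No 2 libraries of a group were copies: chi-square over degrees of freedom was at least 37.96 for every pair. Named genes are the 4 factors, genes of the written lists and the 5 nearest patterns per factor. Which list genes are described was decided after their values were seen. The members and lists were chosen with earlier results of these data known.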

Additional observations from a re-analysis of the deposited data

Results flagged for a closer look

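In 25 of the 132 sets of oocytes examined (44 genes in 3 groups), the highest or lowest oocyte lay further from the next than Dixon's 95% critical value allows. Chance flags about 1 in 20 where values are normal. These were CPM without a log, and the sets share the same oocytes, so that rate is only a rough guide. Of the 25, 15 were GV replicate 9. Among the 4 factors, GV replicate 9 was low for SOHLH2 at 40.4 CPM and for BNC1 at 0.0545 CPM, and IVM replicate 9 was high for BNC1 at 18.5 CPM. GV replicate 9 was also low for TBPL2 at 1.23 CPM, TCF4 at 3.16 CPM, DNMT1 at 37.3 CPM, TAF1A at 4.77 CPM and TTF1 at 5.07 CPM. It was high for ZP3 at 8420 CPM, MOS at 4283 CPM, POLR1D at 221 CPM, POLR1G at 124 CPM, BNC2 at 68.9 CPM, RRN3 at 55.6 CPM, POLR1A at 55.0 CPM and POLR1F at 16.3 CPM. High values in other oocytes were those of STAT3 in GV replicate 7 at 349 CPM, ID2 in CNP_IVM replicate 5 at 7.58 CPM, in IVM replicate 3 at 6.03 CPM and in GV replicate 6 at 11.9 CPM, MOS in CNP_IVM replicate 1 at 1627 CPM, DNMT1 in IVM replicate 5 at 843 CPM, POLR1B in IVM replicate 8 at 342 CPM, POLR1D in IVM replicate 9 at 42.7 CPM and POLR1F in CNP_IVM replicate 5 at 55.1 CPM.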

How the results depend on the processing

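No paired analysis was possible because no result comes from a test and the shared replicate numbers name oocytes only. FIGLA, NOBOX and SOHLH2 kept the sign of every difference under every alternative run. FIGLA in CNP_IVM against GV moved to -5.10 with TMM factors. BNC1 in CNP_IVM against IVM turned to 0.017 with TMM factors, 0.0049 with median-of-ratios factors and 0.015 with medians over oocytes, and ran from -0.49 to 0.20 with each oocyte left out, positive without IVM replicate 9; the cause was not tested. In IVM against GV, 1 factor (SOHLH2) was at least 2-fold higher with either set of factors. In CNP_IVM against IVM, 1 factor (NOBOX) in place of 2 was at least 2-fold lower with either set of factors and with medians. Over all genes, CNP_IVM against GV had 3014 higher with TMM and 2741 with median-of-ratios factors, against 1818 as reported. CNP_IVM against IVM had 993 lower and 457 higher with TMM, 983 and 444 with median-of-ratios factors, and 2793 and 395 with a pseudocount of 0.1 CPM, against 1754 and 220. The share of 2-fold genes on the higher side was 32.4% for IVM against GV (43.9% with TMM), 26.8% for CNP_IVM against GV (43.4%) and 11.1% between the matured groups (31.5%). Of 364 values of 26 other named genes, 323 moved by less than the SD between oocytes, 41 by more, and 0 of those at least 2-fold apart changed sign. Among the factors, reads were fewest for BNC1, with 2 in GV replicate 9. NOBOX was also low in some matured oocytes, with 34 reads in CNP_IVM replicate 4 and 40 in IVM replicate 7.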

Other observations

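Some measured genes of the same lists have not been described. TCF12, an E protein, averaged 66.8 CPM (11.7 to 155) in CNP_IVM, 48.6 CPM (17.9 to 84.3) in IVM oocytes and 53.7 CPM (19.4 to 86.3) in GV oocytes. ID1 stayed below the filter, at 0.213 CPM, 0.441 CPM and 2.00 CPM on average in CNP_IVM, IVM and GV oocytes. TAF4B, a gonadal subunit of the TFIID complex, was scarce throughout, at 1.54 CPM (0 to 3.75) in CNP_IVM, 3.29 CPM (1.06 to 6.05) in IVM oocytes and 3.16 CPM (1.77 to 4.75) in GV oocytes. The ratio of FIGLA to NOBOX within an oocyte ran from 1.54 to 16.97 in CNP_IVM, from 0.420 to 11.3 in IVM and from 8.60 to 22.1 in GV oocytes, so it overlapped between all groups.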
